A study of Mus musculus with 5 samples.

Results

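The 10 genes described here are regulators of the naive state of mouse embryonic stem cells: the nuclear receptors Esrrb, Nr5a2 and Nr0b1, the zinc-finger factors Klf2, Klf4 and Klf5, the factors Tfcp2l1, Tbx3 and Prdm14, and Tcl1. They were taken by name, with all of their probe sets that the platform annotation lists under exactly 1 gene symbol. This gave 24 of the 45101 probe sets, and the 10 genes are among 18193 genes named in this way. The label of the group is transcription factors, and Tcl1 does not meet it, since it encodes a coactivator of the kinase Akt. RNA was measured on 5 Affymetrix arrays, 1 for each group. J1 cells, an established mouse embryonic stem cell line, were grown on mouse embryonic fibroblast feeders and had been transfected with Tet1 siRNA or with control siRNA 4 days before harvest. E14 cells, another such line, were grown without feeders, infected with lentivirus carrying Tet1 shRNA3387, Tet1 shRNA2863 or a scrambled hairpin, and harvested after 4 days of puromycin selection. Tet1 is a dioxygenase that oxidizes 5-methylcytosine, and the study compared expression with and without it. The J1 arrays thus differ from the E14 arrays in line, in feeders and in how Tet1 was depleted, and the 3 cannot be told apart.

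In the naive state, which resembles the inner cell mass of the blastocyst, Oct4, Sox2 and Nanog act together with a wider circuit of factors that can partly stand in for one another. LIF acts through Stat3 on Klf4 and Tfcp2l1 and through Akt on Tbx3, while the Wnt pathway relieves repression of Esrrb by Tcf7l1. Several of these genes are known to be shut down when cells move to the primed state of the epiblast, where genes such as Otx2 and Fgf5 are active.

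Tet1 acts on cytosines of CG dinucleotides, so the promoter windows of these genes are shown with each CG in capitals. The windows come from RefSeq (build GRCm38.p6), run from 250 bases before to 50 bases after an annotated start, and are given on the strand of the gene. They were present for 7 of the 10 genes, 9 windows in all; Tbx3, Klf5 and Prdm14 had none. Shown are Tcl1 on chr12:105222688-105222987 (minus strand), which had the largest difference in J1 cells; both windows of Esrrb, on chr12:86360867-86361166 and chr12:86421394-86421693 (plus strand), whose probe sets disagreed; and Klf4 on chr4:55532426-55532725 (minus strand), which differed most between the lines.
Tcl1: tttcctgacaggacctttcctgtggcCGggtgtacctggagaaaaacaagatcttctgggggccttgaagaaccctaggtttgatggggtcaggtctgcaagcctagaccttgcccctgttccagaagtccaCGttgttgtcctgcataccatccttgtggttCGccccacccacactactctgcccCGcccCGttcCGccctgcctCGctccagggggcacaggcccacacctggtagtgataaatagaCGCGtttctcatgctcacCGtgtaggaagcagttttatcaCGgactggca
Esrrb, start 1: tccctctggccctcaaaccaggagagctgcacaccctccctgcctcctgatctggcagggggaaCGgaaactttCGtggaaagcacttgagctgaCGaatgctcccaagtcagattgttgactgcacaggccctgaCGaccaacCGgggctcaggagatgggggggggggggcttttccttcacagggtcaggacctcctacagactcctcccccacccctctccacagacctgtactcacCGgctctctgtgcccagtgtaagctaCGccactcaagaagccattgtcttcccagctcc
Esrrb, start 2: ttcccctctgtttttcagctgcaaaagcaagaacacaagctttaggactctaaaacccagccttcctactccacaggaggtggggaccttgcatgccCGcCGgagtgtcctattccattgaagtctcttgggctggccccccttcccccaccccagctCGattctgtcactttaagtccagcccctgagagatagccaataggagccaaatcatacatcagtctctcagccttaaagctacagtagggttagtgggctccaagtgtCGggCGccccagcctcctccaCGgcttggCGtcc
Klf4: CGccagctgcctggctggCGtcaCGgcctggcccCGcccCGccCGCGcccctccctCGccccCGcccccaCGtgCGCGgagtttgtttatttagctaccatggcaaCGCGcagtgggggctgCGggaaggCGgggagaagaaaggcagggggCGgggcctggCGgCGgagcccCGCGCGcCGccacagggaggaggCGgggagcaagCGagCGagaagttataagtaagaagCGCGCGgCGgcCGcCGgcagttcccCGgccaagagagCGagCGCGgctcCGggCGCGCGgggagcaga

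The number of CG dinucleotides in these windows ran from 2 to 40. Klf4 held 40 CG dinucleotides, more than or as many as 96.5% of the 32851 RefSeq windows, and Klf2 held 32. Tfcp2l1 held 21, Nr0b1 14 and Tcl1 11. Both Esrrb windows held 7, the median of all windows, and the windows of Nr5a2 held 2 and 7. Tcl1 and Esrrb, which differed most in J1 cells among genes with a window, thus had fewer CG dinucleotides than Klf4 and Klf2. However, Nr5a2 had the window with the fewest and differed by -0.86 in J1 cells, close to Klf4 with -0.87. The order by CG dinucleotides was therefore not the order by difference.

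**Figure D1:**
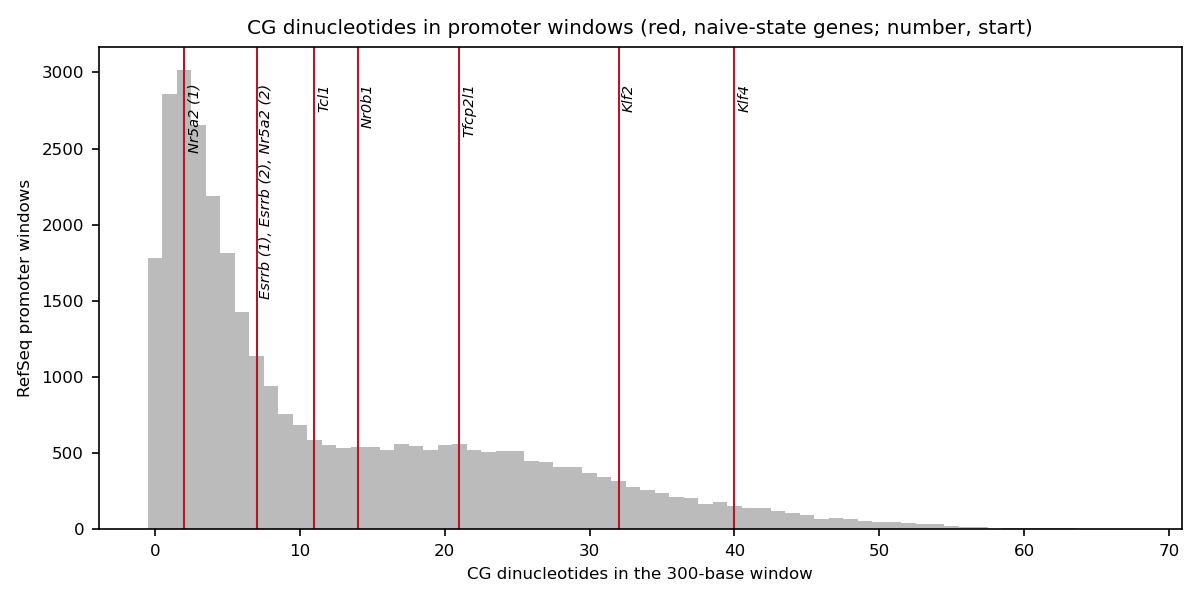
CG dinucleotides in 300-base promoter windows: grey bars count the 32851 RefSeq windows at each number of CG (x axis), and red lines mark the 9 windows of 7 naive-state genes, with the number of the start where a gene has more than 1. Klf4 (40) and Klf2 (32) lie in the upper tail, and Esrrb (7) lies at the median.

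Known binding motifs of the factors themselves were also searched on both strands of these windows. The site of Esrrb and Nr5a2, searched as AAGGTCA, was in 0 of the 9 windows and in 4.72% of all windows. A Stat site, TTCCNGGAA, and the octamer, ATGCAAAT, were in 0 of 9, against 1.15% and 1.74% of all windows. A Klf site, GGGNGTGG, was in the windows of Tfcp2l1 (2 matches) and Nr5a2 (start 2), against 17.6% of all windows. A loose form of the Tfcp2l1 site, CCNG followed after 6 bases of any kind by CCNG again, was in 5 of 9 windows (Esrrb start 1, Klf2, Klf4, Nr0b1 and Tcl1), against 29.5% of all windows; in Klf2 its matches on opposite strands overlap each other. That site fixes only C and G bases, and the windows with a match held 56.7% to 74.3% G and C. The median of all windows was 52.7%. The windows of Tfcp2l1 (65.3%) and Esrrb start 2 (55.3%) also lay above it and had no match. The share was not compared at like content of G and C. All of these matches describe letters in short windows and do not show binding.

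All values are log2 probe set summaries as deposited, and all differences are log2 of the depleted array minus the control array of its own line. The probe set with the highest mean stands for its gene, and 13619 genes that exceeded the 40th percentile of their array at least once were kept. All 10 genes passed, through 19 of their 24 probe sets, and the probe sets that stand for them were above that level on all 5 arrays. As a check of the labels, the brightest Tet1 probe set read 8.31 with Tet1 siRNA and 10.85 with control siRNA in J1 cells, and 9.24 with shRNA3387, 10.06 with shRNA2863 and 10.95 with the scrambled hairpin in E14 cells, so Tet1 was lower in each depletion and least so with shRNA2863. All 10 stem cell markers, Oct4, Sox2 and Nanog among them, were kept on every array. Of 18 fibroblast markers 15 were kept, and Col1a2 read 5.95 and 6.24 in J1 cells, with and without Tet1 siRNA, against 3.59 to 3.62 in E14 cells; Col6a1, Postn and Dcn did not pass. Between the control arrays, however, 12 of the 15 were lower and 3 higher in J1 than in E14 cells (median -0.05). Of all genes kept 56.2% were lower and 42.9% higher. The median over the probe sets was also lower on the J1 control array (3.45) than on the scramble array (3.52). Several of the fibroblast markers read near that level. Nothing in the labels says that arrays came from separate cultures, and no group has a second array. The p-values thus reflect no more than the scatter among 5 arrays, and part of it may be technical. In the fit over all 5 arrays this scatter is how the 3 depletions differ from each other, in line, reagent and Tet1 left.

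In J1 cells all 10 genes, read by their brightest probe set, were lower with Tet1 siRNA than with control siRNA. With the median over each gene's probe sets 7 of 10 were lower, Klf5 (0.14), Tbx3 (0.01) and Tfcp2l1 (0.01) were not, and Esrrb differed by -0.26; for Tbx3 and Tfcp2l1 most probe sets are under the filter level. The median difference was -0.86, against -0.01 over all genes kept and -0.09 over the 5826 genes of like level (means of 6.21 to 10.03). Below 0 were 50.4% of all genes kept and 62.0% of those of like level. At least 1.5-fold lower were 8 of the 10, against 6.09% of all genes kept, and at least 2-fold lower were 3 (Tcl1, Esrrb and Prdm14), against 1.10%. None was 1.5-fold higher, a size that 2.91% of all genes kept reached. In such bulk samples fewer cells of a type and less RNA per cell cannot be told apart, and a single pair of arrays allows no test.

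Among the nuclear receptors, Esrrb, which occupies many of the sites bound by Oct4 and Nanog, read 7.70 with Tet1 siRNA and 8.91 with control siRNA, a 2.31-fold lower level. Nr5a2, known for maintaining Oct4 expression in the epiblast, read 6.46 and 7.32 on the same arrays, 1.82-fold lower. Nr0b1, an unusual receptor that lacks the common DNA-binding domain and acts as a corepressor, read 8.01 and 8.86, 1.80-fold lower. The receptors thus stood at 43.2%, 55.1% and 55.5% of their control levels.

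The Klf factors overlap in function and are best known for sustaining self-renewal together. Klf2 read 9.87 with Tet1 siRNA and 10.68 with control siRNA (1.75-fold lower), and Klf4 read 8.10 and 8.97 (1.83-fold lower). Klf5, which also acts in the trophectoderm, read 9.96 and 10.24, a 1.21-fold difference and the smallest of the 10. Klf2 (-0.81) and Klf4 (-0.87) lay past the lower edge of the middle 95% of all genes (-0.80), and Klf5, with -0.28, lay well within it.

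Tcl1 had the largest difference of the group, reading 6.36 with Tet1 siRNA and 7.82 with control siRNA, 2.75-fold lower and at rank 27 from the lowest of the 13619 genes. Prdm14, which represses FGF signalling and the de novo DNA methyltransferases, read 4.79 and 5.97 (2.27-fold lower, rank 76). Tfcp2l1, a factor downstream of Stat3, read 7.65 and 8.46 (1.75-fold lower). Tbx3, which LIF sustains through Akt and which also favours extraembryonic endoderm, read 7.25 and 7.77, 1.43-fold lower and inside the middle 95% of all genes.

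**Figure D2:**
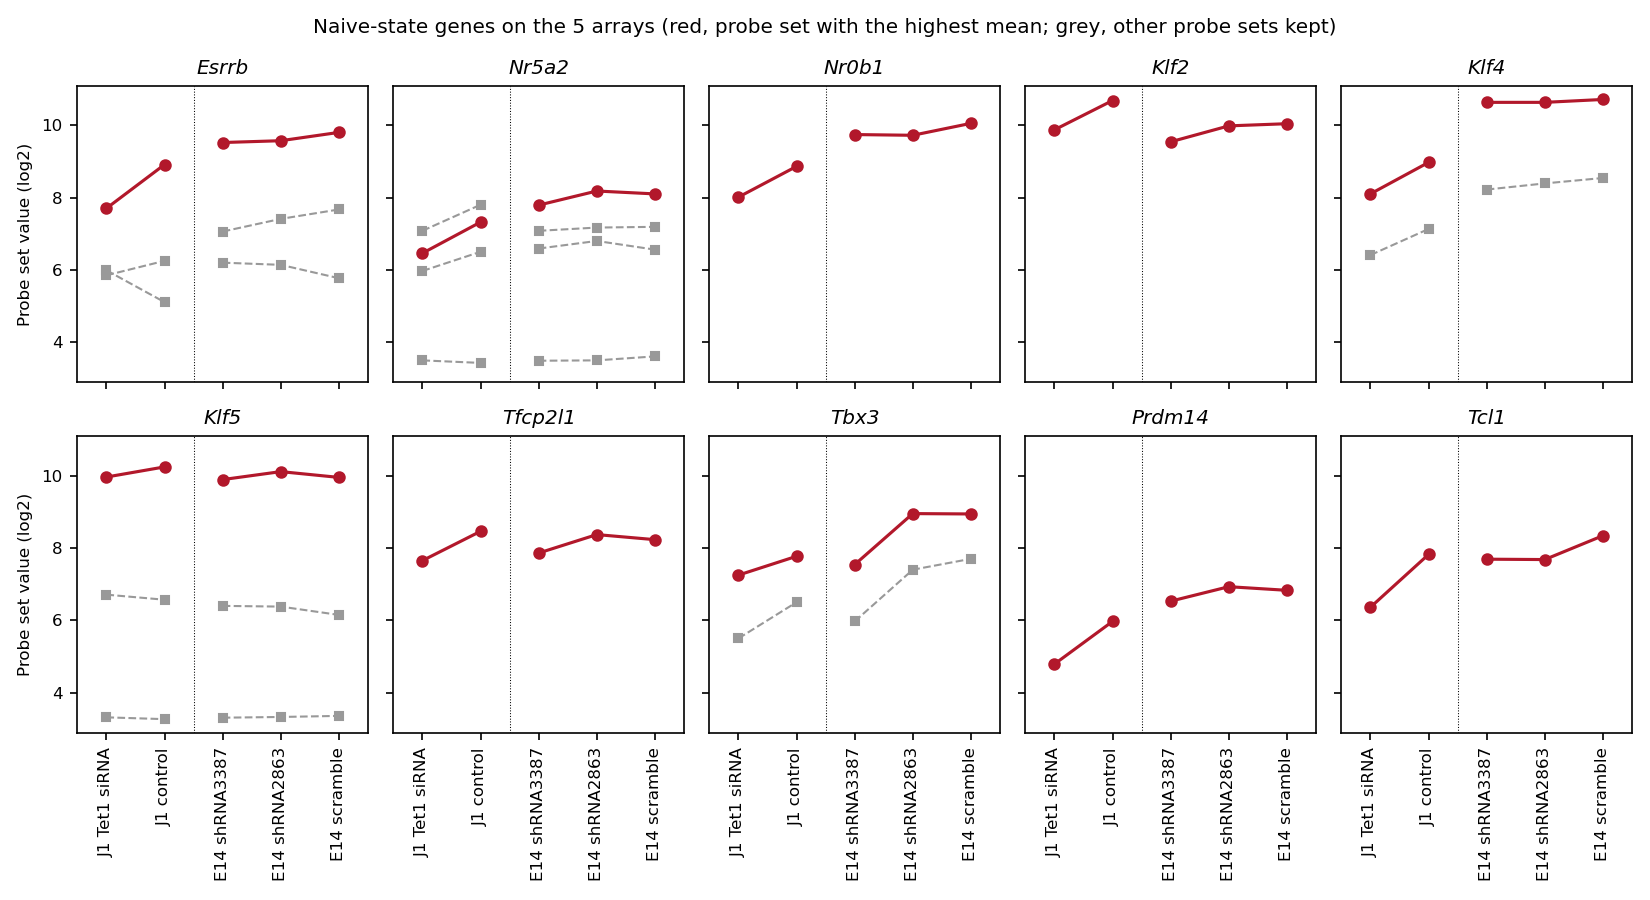
Log2 values (y axis) of each naive-state gene on the 5 arrays (x axis), with a dotted line between the J1 and E14 arrays; red circles are the probe set that stands for the gene, grey squares are its other probe sets kept. In J1 cells every red point of the Tet1 siRNA array lies below its control, while in E14 cells only Tbx3 with shRNA3387 is more than 2-fold below the scrambled hairpin.

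Markers of other cell types also differed on the same pair of arrays. Of 9 kept trophectoderm markers 8 were higher with Tet1 siRNA than with control siRNA, with a summed linear level of 11597 against 7815, and 3 were at least 2-fold higher; of all genes kept 45.5% were higher and 0.470% at least 2-fold higher. Most of both sums came from the keratin genes Krt8 and Krt18. The defining factors Cdx2, Elf5 and Gata3 did not pass the filter. Of 9 kept primitive endoderm markers 7 were higher (1311 against 1078). Most of both sums came from the matrix genes Col4a1 and Lamb1. The factors Gata4, Gata6 and Sox7 read 3.15 to 3.46 on these arrays, near the filter level, and Pdgfra, Foxa2 and Cubn did not pass. The 10 stem cell markers were all lower (23450 against 29918), against 50.4% of all genes kept. Of 15 kept fibroblast markers 8 were higher and 7 lower (1700 against 1654). The part of these cell types in the lower naive-state genes was not tested.

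In E14 cells these genes differed by less than 1.5-fold with either hairpin, apart from Tcl1 and Tbx3. With shRNA3387 all 10 were below the scrambled hairpin, against 56.9% of all genes kept and 40.6% of those of like level, with a median of -0.31. Klf5 (-0.06) was not below it after median centring or with the median over probe sets (0.25), which left 9 of 10. With shRNA2863, which left more Tet1, 5 of 10 were below it, against 55.1% of all genes kept and 43.4% of those of like level, with a median of -0.02. At least 1.5-fold lower were Tbx3 and Tcl1 with shRNA3387 (3.36% of all genes kept) and Tcl1 alone with shRNA2863 (3.26%). At least 2-fold lower were Tbx3 with shRNA3387 (0.653%) and 0 members with shRNA2863 (0.609%). Both hairpins were set against the same scramble array, so their differences share its error.

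Tcl1 was lower to the same degree with both hairpins. It read 7.69 with shRNA3387, 7.68 with shRNA2863 and 8.34 with the scrambled hairpin, 1.57-fold and 1.58-fold lower. Nr0b1 read 9.74, 9.72 and 10.05 on these arrays, and Esrrb 9.52, 9.57 and 9.80, so that both hairpin arrays of each gene lay below the scramble array by 0.23 to 0.33. Klf4 read 10.63 with both hairpins and 10.71 with the scrambled hairpin, 1.06-fold below it.

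Tbx3 differed between the hairpins more than any other of the 10. It read 7.54 with shRNA3387, 8.95 with shRNA2863 and 8.94 with the scrambled hairpin. Its other kept probe set read 5.97, 7.40 and 7.70, again lowest with shRNA3387. Tbx3 was thus 2.64-fold lower with shRNA3387 (rank 23 from the lowest of 13619) and within 1.01-fold with shRNA2863. Between the hairpins it was 2.66-fold lower with shRNA3387 than with shRNA2863, at rank 10 from the lowest of 13619; 0.345% of all genes kept were at least 2-fold lower there. On the same arrays, 13 of 15 kept fibroblast markers were lower with shRNA3387 than with the scrambled hairpin, against 56.9% of all genes kept. Their median difference was only -0.05, on arrays whose median probe set value was 3.46 with shRNA3387 and 3.52 with the scrambled hairpin. Summed linear levels were 1120 with shRNA3387, 1914 with shRNA2863 and 1775 with the scrambled hairpin. Most of each sum came from Tagln (9.50, 10.15 and 10.12) and the smooth muscle actin Acta2 (7.16, 8.83 and 8.62). The part of fibroblast-like cells in the Tbx3 difference was not tested.

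The other members lay nearer to the scramble array. Klf2 read 9.54 with shRNA3387, 9.98 with shRNA2863 and 10.04 with the scrambled hairpin. Tfcp2l1 read 7.86, 8.37 and 8.23, and Nr5a2 read 7.79, 8.18 and 8.10. Prdm14 read 6.53, 6.93 and 6.83, and Klf5 9.89, 10.11 and 9.95. In the last 4 genes shRNA3387 lay below the scrambled hairpin and shRNA2863 above it, by at most 0.37 either way.

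**Figure D3:**
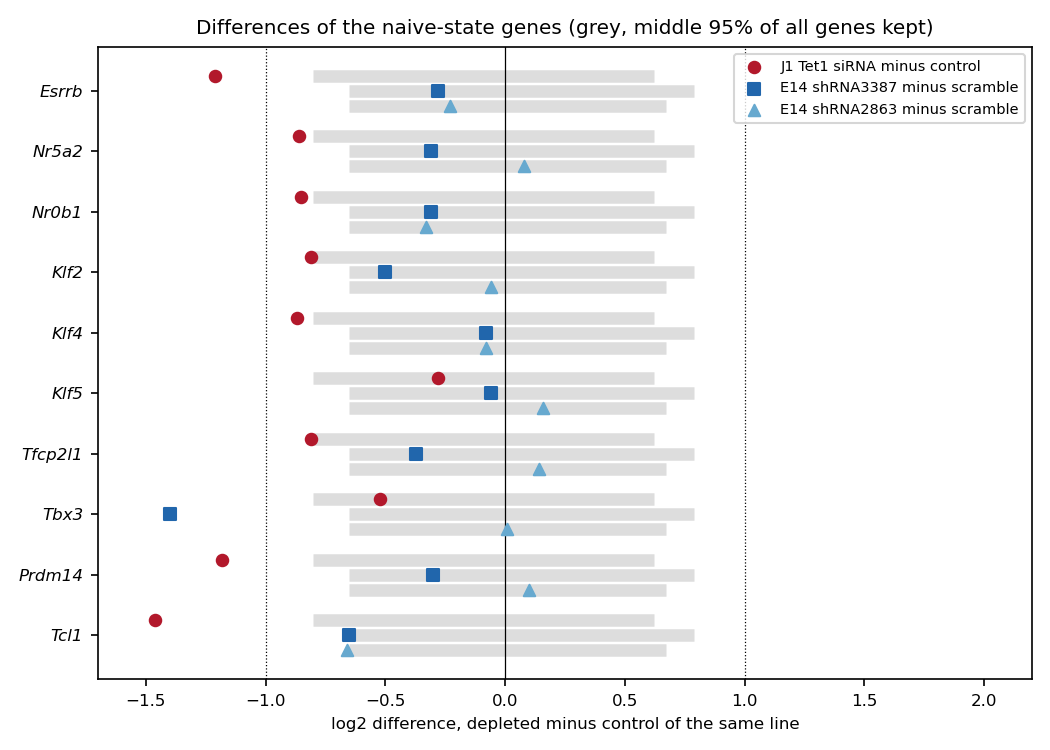
Log2 difference (x axis) of each naive-state gene (y axis) for J1 Tet1 siRNA (red circles), E14 shRNA3387 (dark squares) and E14 shRNA2863 (light triangles), each against its own control; grey bars span the middle 95% of all 13619 genes and dotted lines mark 2-fold. The J1 points of 8 genes lie left of the bars, and in E14 cells Tbx3 with shRNA3387 (-1.40) lies far left of them, with Tcl1 at their edge.

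Over all 3 depletions no gene passed the test. In the limma fit with a term for the line, 0 of 13619 genes had an adjusted p under 0.05, so that 0.00% were called lower; 936 had an unadjusted p under 0.05. The pooled difference was -1.0 ± 0.22 (SE, 3 depleted and 2 control arrays) for Tcl1, with an unadjusted p of 0.0128 and an adjusted p of 0.7. It was -0.55 ± 0.15 for Nr0b1, with an unadjusted p of 0.0262 and an adjusted p of 0.701. Leaving out a J1 array leaves the E14 effect alone, -0.66 for Tcl1 and -0.32 for Nr0b1. Leaving out the scramble array leaves the J1 difference alone, -1.46 and -0.85. These values are thus parts of the pooled difference and no separate check of it. Tcl1 and Nr0b1 were the members with an unadjusted p under 0.05, 2 of 10, against 4.01% of all genes kept that were lower. For the rest the 95% interval of the pooled difference included 0, as for Esrrb (-0.66, from -1.39 to 0.06, and -0.26 without either J1 array) and Klf5 (-0.09, from -0.46 to 0.27). Below 0 in all 3 depletions were Esrrb, Tcl1, Klf2, Klf4 and Nr0b1, 5 of 10, against 20.5% of all genes kept.

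Within E14 cells alone, limma called 0 genes, with 1500 at an unadjusted p under 0.05, 6.58% of all genes kept being lower at that level. The mean hairpin effect was -0.66 ± 0.09 (SE) for Tcl1 (adjusted p = 0.366) and -0.32 ± 0.07 for Nr0b1 (adjusted p = 0.42), the 2 members that reached it. Whether the J1 effect differed from the E14 effect was tested directly, again with 0 genes called and 1888 at an unadjusted p under 0.05. Esrrb, Tcl1, Klf4 and Nr0b1, 4 of 10, were lower at that unadjusted level, against 7.08% of all genes kept. The J1 effect minus the mean E14 effect was -1.08 ± 0.38 for Prdm14, -0.95 ± 0.12 for Esrrb, -0.80 ± 0.13 for Tcl1 and -0.79 ± 0.09 for Klf4, with adjusted p of 0.414, 0.332, 0.344 and 0.332. The count of 4 of 10 reads each gene by its brightest probe set. For the same difference the other probe sets of Esrrb gave 0.03 ± 0.34 and 0.48 ± 0.13, and that of Klf4 -0.48 ± 0.20. These errors come from the 2 hairpin arrays and assume that each lone array varies as they do. A stronger response in J1 than in E14 cells was therefore not shown by this test.

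The probe sets of a gene did not always move together, and Esrrb was the clearest case. Its brightest probe set differed by -1.21, -0.28 and -0.23 with J1 siRNA, shRNA3387 and shRNA2863, and the next brightest by -0.40, -0.61 and -0.26. The dimmest read 5.99 with Tet1 siRNA and 5.11 with control siRNA in J1 cells, and 6.2 with shRNA3387, 6.14 with shRNA2863 and 5.77 with the scrambled hairpin. It was thus higher in all 3 depletions, with a pooled difference of 0.61 ± 0.15 (SE; unadjusted p = 0.0204, limma adjusted p over all probe sets = 0.737). Which transcripts each probe set reads is not given in the sources used here.

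For Klf4 both probe sets were lower with J1 siRNA, by -0.87 and -0.72, and for Tbx3 both kept ones, by -0.52 and -1.0. The 3 brighter kept probe sets of Nr5a2 were lower in J1 cells, by -0.86, -0.72 and -0.53, and the dimmest, near the filter level at 3.43 to 3.61, differed by 0.07. The second brightest probe set of Klf5 was higher in all 3 depletions, by 0.14, 0.25 and 0.23, unlike the brightest. The other 2 probe sets of Tfcp2l1 and the other 3 of Tbx3 were under the filter level on every array, between 2.17 and 2.64.

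The levels of several of these genes were lower in J1 than in E14 cells. With Tet1 status as a depleted-or-control term, J1 minus E14 was -2.19 ± 0.21 (SE, 2 J1 and 3 E14 arrays, limma adjusted p = 0.0212) for Klf4. It was -1.49 ± 0.15 (adjusted p = 0.0225) for Nr0b1 and -1.44 ± 0.26 (adjusted p = 0.0456) for Esrrb. That term takes the depletion as equal in both lines, although the probe sets that stand for these genes differed more with J1 siRNA than with either hairpin. Between the control arrays alone the differences were -1.74 for Klf4, -1.19 for Nr0b1 and -0.89 for Esrrb. In the fit these 3 of 10 passed, all lower in J1, where 6.37% of all genes kept were called lower and 7.80% higher. Over all genes this was 868 lower and 1062 higher, and 1294 lower and 1093 higher after quantile normalization; 6 of 10 members were lower at an unadjusted p under 0.05, against 15.6%. With any 1 array left out the fit called 0 genes, and the adjusted p of these genes ran from 0.0902 to 0.155 while the differences kept their sign. Esrrb also missed the threshold after median centring (adjusted p = 0.0522) and without the filter (0.0511).

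Klf4 read 8.10 and 8.97 in J1 cells, with and without Tet1 siRNA, against 10.63 with each hairpin and 10.71 with the scrambled hairpin in E14 cells. Its J1 control alone was 3.34-fold below the E14 scramble array, and with Tbx3 and Nr0b1 it made 3 of 10 members at least 2-fold lower there (3.52% of all genes kept); 6 were at least 1.5-fold lower (9.69%). The other probe set of Klf4 differed by -1.69 ± 0.16 (limma adjusted p over all probe sets = 0.0165). Nr0b1 read 8.01 and 8.86 in J1 against 9.72 to 10.05 in E14 cells, and Esrrb 7.70 and 8.91 against 9.52 to 9.80. Both J1 arrays lay below all E14 arrays for these 3 genes and for Nr5a2 and Prdm14, 5 of 10, against 27.1% of all genes kept.

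Prdm14 (-1.48 ± 0.32, adjusted p = 0.0638), Nr5a2 (-1.21 ± 0.25, adjusted p = 0.0584) and Tcl1 (-0.98 ± 0.22, adjusted p = 0.07) did not pass in limma, although all 3 passed after quantile normalization and with a filter at the 60th percentile (adjusted p from 0.0322 to 0.043). For Nr5a2 the probe sets disagreed: the second brightest by mean read 7.08 and 7.80 in J1 cells, with and without Tet1 siRNA, against 7.08 to 7.19 in E14 cells, with a J1 minus E14 difference of 0.24 ± 0.20. Tbx3 differed by -1.07 ± 0.49, with J1 arrays at 7.25 and 7.77 and the shRNA3387 array at 7.54 between them. Tfcp2l1 (-0.17, 95% interval from -0.91 to 0.58), Klf5 (0.10, from -0.26 to 0.47) and Klf2 (0.34, from -0.26 to 0.94) had J1 and E14 arrays that overlapped. Klf2 was the single member at least 1.5-fold higher in the J1 control than in the E14 scramble array, with 10.68 against 10.04, a size that 13.4% of all genes kept reached. Trophectoderm markers summed to 11597 and 7815 on a linear scale in J1 cells, with and without Tet1 siRNA, against 1816, 3707 and 2364 with shRNA3387, shRNA2863 and the scrambled hairpin in E14 cells, and fibroblast markers to 1700 and 1654 against 1120, 1914 and 1775. Most of each trophectoderm sum came from the keratin genes Krt8 and Krt18. Between the control arrays 8 of the 9 kept trophectoderm markers were higher in J1 cells, against 42.9% of all genes kept, and Eomes was lower (-0.59). The part of these cell types in the J1 minus E14 differences was not tested.

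**Figure D4:**
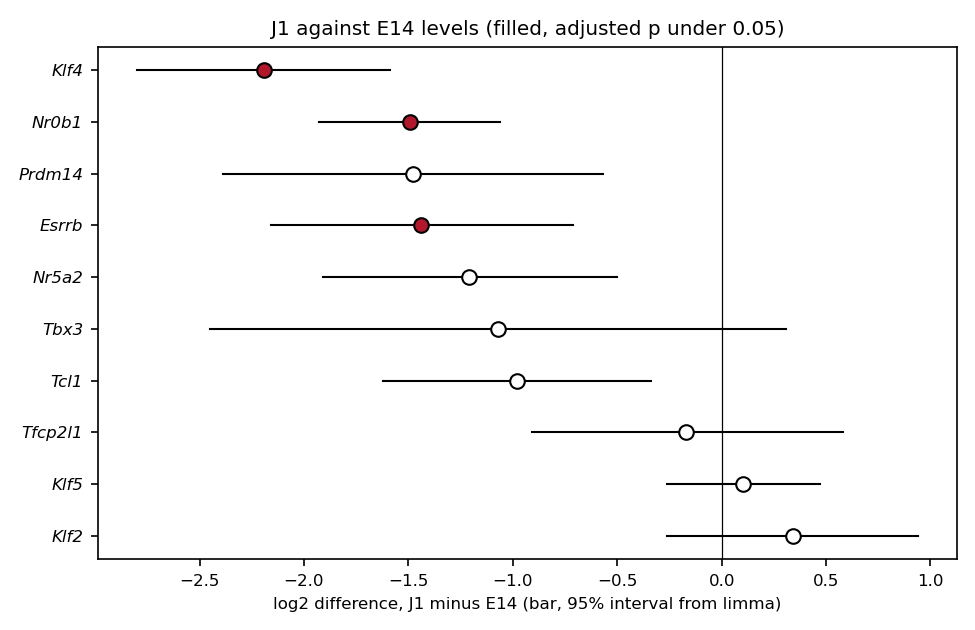
J1 minus E14 log2 difference (x axis) for each naive-state gene (y axis), from the fit with Tet1 status as a depleted-or-control term, with 95% intervals from limma. Filled points have an adjusted p under 0.05. Klf4 (-2.19), Nr0b1 (-1.49) and Esrrb (-1.44) passed, and the intervals of Tbx3, Tfcp2l1, Klf5 and Klf2 include 0.

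The pattern of Esrrb over the 5 arrays was compared with that of every other gene kept, as the distance between mean-centred log2 values. Among the other members, Nr0b1 (distance 0.278, rank 6 of the genes kept), Prdm14 (0.286, rank 8) and Nr5a2 (0.42, rank 21) were near it. Tcl1 (0.674, rank 118) and Klf4 (0.917, rank 406) came next, and Tbx3, Tfcp2l1, Klf5 and Klf2 were farther (1.202 to 1.954). The nearest genes outside the group were 2700081O15Rik (0.173), Crebrf and Dgke (0.194 each), Pfkp (0.268) and Kbtbd11 (0.27). With 5 arrays such nearness rests on few values.

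The genes around this circuit gave a mixed picture. The core regulators Oct4 (Pou5f1), Sox2, Nanog and Sall4 were lower with J1 siRNA in 4 of 4, with a median of -0.56, and had medians of -0.12 and -0.11 with shRNA3387 and shRNA2863. Of 10 other naive-state genes kept, 9 were lower with J1 siRNA (median -0.48), 8 with shRNA3387 and 7 with shRNA2863. The 4 core regulators, and Zfp42 and others of the naive-state genes, are also among the 10 stem cell markers given above. The counts of these lists therefore overlap. Among all genes kept 50.4% were lower with J1 siRNA, 56.9% with shRNA3387 and 55.1% with shRNA2863. Gbx2, a homeobox target of Stat3, read 5.61 with Tet1 siRNA and 6.90 with control siRNA, and 6.18, 6.25 and 7.5 with shRNA3387, shRNA2863 and the scrambled hairpin. The adhesion protein gene Jam2 had differences of -1.25, -0.58 and 0.12, while Sox15, a close relative of Sox2, differed by 0.62 in J1 and by -1.04 and -0.88 in E14 cells.

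Upstream of the members, 8 of 9 LIF pathway genes were lower with J1 siRNA, 7 with shRNA3387 and 5 with shRNA2863. Over all genes kept the shares were 50.4%, 56.9% and 55.1%, so the count with shRNA2863 was near its share. The kinase genes Pim3 and Pim1, targets of Stat3, differed by -0.93 and -0.72 with J1 siRNA, by -0.48 and -0.47 with shRNA3387, and by -0.50 and -0.54 with shRNA2863. Stat3 itself differed by -0.46, -0.36 and -0.30, and the receptor gene Lifr by -0.61, -0.07 and -0.20. Against the direction seen for Klf4, LIF pathway genes were higher in J1 than in E14 cells where they passed the test, 4 of 9 against 7.80% of all genes kept (Stat3, Pim1, Junb and Jak2; Pim1 by 0.91 ± 0.11, limma adjusted p = 0.0252). Between the control arrays 7 of the 9 were higher in J1, and 2 were lower, Socs3 (-0.78) and Lifr (-0.19), which did not pass. Of all genes kept 42.9% were higher and 56.2% lower there. Of 6 Wnt and Tcf genes kept, Lef1 was lower in J1 than in E14 cells (-3.45 ± 0.39, limma adjusted p = 0.0244). Ctnnb1, the gene of beta-catenin, passed as higher. Tcf7l1, the repressor of Esrrb, differed by 0.06, 0.58 and 0.13 in the 3 depletions.

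Of 25 kept family relatives 15 were lower with J1 siRNA, 16 with shRNA3387 and 12 with shRNA2863, with medians of -0.10, -0.03 and 0.00. These counts were near the shares over all genes kept, 50.4%, 56.9% and 55.1%. Klf6 was above its control in all 3 depletions (0.59, 0.36 and 0.30), and Klf9 was higher in J1 than in E14 cells (1.22 ± 0.13, limma adjusted p = 0.0228). Tcl1b3, a relative of Tcl1, differed by 0.18, -0.68 and -0.48. The partners Ncoa3 (coactivator of Esrrb) and Cbfa2t2 (corepressor of Prdm14) differed by -0.30, 0.03 and 0.28 and by -0.38, 0.14 and -0.31. Primed epiblast markers were above the scrambled hairpin with shRNA3387 in 12 of 13 (median 0.53), and 4 were at least 2-fold above it. Of all genes kept 41.7% were above it and 1.15% at least 2-fold. The largest differences were those of Fgf5 (3.74) and Sox3 (2.88). Fgf5 passed the filter through the shRNA3387 array alone (6.65), and its scramble value (2.91) was under the filter level. Its part in these counts was thus fixed by the filter. The medians of the primed epiblast markers were -0.07 with J1 siRNA and -0.01 with shRNA2863, and Otx2 differed by -2.03 with J1 siRNA. No gene of these lists passed the limma test over all depletions.

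**Figure D5:**
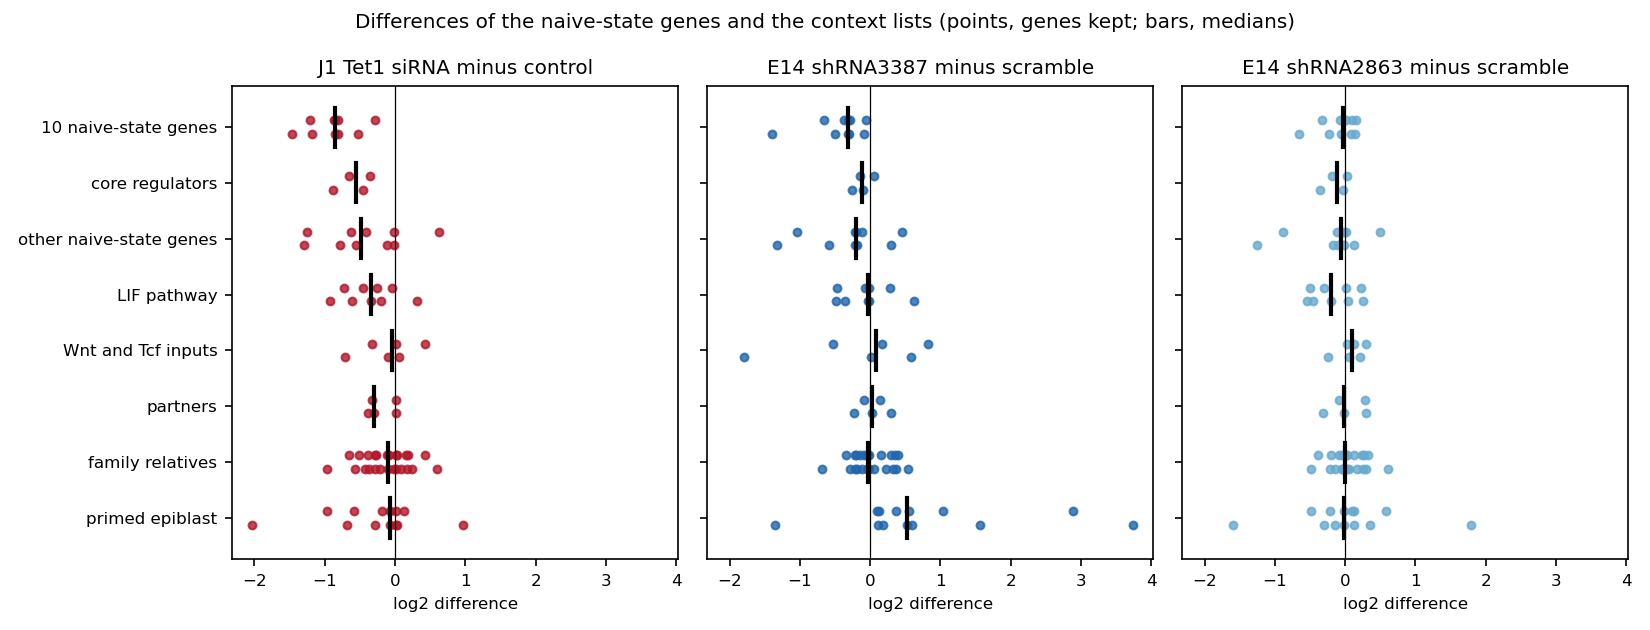
Log2 differences (x axis) of the genes kept in each list (y axis) with J1 Tet1 siRNA, E14 shRNA3387 and E14 shRNA2863 (panels), each against its own control; bars are medians. The naive-state genes have the lowest median in J1 cells (-0.86) and with shRNA3387 (-0.31), where primed epiblast markers lie to the right (0.53).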

How the data were processed

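RNA of 5 groups of mouse embryonic stem cells, 1 array each, was measured with biotin-labelled cRNA. The authors deposited 1 log2 summary per probe set. That these are log2 values was judged from their range, 1.38 to 14.12. How they were summarised and normalized: not given in the sources used here. No further normalization was applied to the deposited log2 values. Genes were named from the platform annotation, and the 10 members were matched by Entrez identifier to RefSeq (GRCm38.p6). The probe set with the highest mean stood for a gene, and genes above the 40th percentile on at least 1 array were kept.

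Differences between single arrays were described by size. limma 3.58.1 in R 4.3.3 fitted all 13619 genes, with the prior variance following the mean level, and its two-sided p-values were adjusted by Benjamini-Hochberg. The fit over all arrays had terms for line and Tet1 status (2 residual degrees of freedom); E14 effects and the difference between lines came from 4 means (1 residual degree of freedom). The fits were tested on simulated data. The members and lists were chosen with earlier results of these data known. Named are all members, up to 4 genes per list by mean difference over the depletions, up to 2 by the difference between the controls, and the 5 genes nearest to Esrrb. Tet1 checks the labels. Jak2, Socs3, Ctnnb1, Tagln, Krt8, Lamb1, Gata4 and Gata6 are named with their counts or sums after their values were seen. Alternatives were quantile normalization, median centring, other filters, the median over probe sets, all probe sets, no trend, no line term, a 1.5-fold threshold and leaving out each array. The number of arrays limits the precision.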

Additional observations from a re-analysis of the deposited data

Results flagged for a closer look

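In several probe sets the J1 array with Tet1 siRNA moved one way from its control and both hairpin arrays moved the other way from the scramble array; these differences between the lines, given as the J1 effect minus the mean E14 effect on the log2 scale, were not called by the limma test of the difference. Among the members they were the third brightest probe set of Nr5a2 (-0.67, with -0.53 in J1 and 0.03 and 0.24 in E14 cells), the dimmest of Nr5a2 (0.18) and the dimmest of Klf5 (0.09), the last 2 near the filter level, with adjusted p over all probe sets from 0.311 to 0.497. Among genes around the circuit, Sox15 differed most (1.58), followed by Zic2 (1.48), whose J1 difference was only 0.01, and Lef1 (-1.23). Smaller were Axin2 (0.81), Eomes (-0.78), Tcl1b3 (0.76), Sox7 (0.60), Ncoa3 (-0.46) and Tdgf1 (-0.34). Over these genes the adjusted p ran from 0.332 to 0.538.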

How the results depend on the processing

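The counts of 0 genes called for the effect over all depletions, within E14 cells and between the lines stayed at 0 under every alternative run. The number of calls for J1 minus E14 was 1930, and was 4238 when all 24018 probe sets were tested, where more features enter; with 1 array left out it was 0 whichever was left out, in fits with 1 residual degree of freedom. At a 1.5-fold in place of a 2-fold threshold the members that were lower numbered 8 in J1 (3 at 2-fold), 2 with shRNA3387 (1) and 1 with shRNA2863 (0), and 6 for the J1 control against the E14 scramble array (3). With each gene taken as the median of its probe sets, 0 members were 2-fold lower with shRNA3387, since 3 of the 5 Tbx3 probe sets are under the filter level. The same median left 7 of 10 members below 0 in J1, with Klf5 at 0.14, Tbx3 and Tfcp2l1 at 0.01 and Esrrb moved to -0.26, and 9 of 10 with shRNA3387, with Klf5 at 0.25. It turned Nr5a2 between the control arrays to 0.04 and in the E14 effect to 0.04, the pooled Klf5 effect to 0.20, and the J1 minus E14 effect of Esrrb to 0.18, because dimmer or opposed probe sets enter. With 1 array left out, the pooled Klf5 effect ran from -0.28 to 0.05 (positive without either J1 array), that of Tcl1 from -1.46 to -0.66, of Nr0b1 from -0.85 to -0.32 and of Esrrb from -1.21 to -0.26. The ends of these ranges are the J1 difference alone (without the scramble array) and the E14 effect alone (without either J1 array). In J1 minus E14 with 1 array left out, Klf5 ran from -0.04 (without the J1 control or the scramble array) to 0.29. Tfcp2l1 ran from -0.46 to 0.23 (without the J1 Tet1 siRNA array), with 0.01 without shRNA2863. Tcl1, Nr5a2 and Prdm14 passed J1 minus E14 after quantile normalization and with the 60th percentile filter. No paired analysis was possible because each group holds 1 array. The E14 effect could not be tested without an E14 array, nor the difference between the effects of the lines without any array.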
